A study of Streblospio benedicti with 24 samples.

Results

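The 5 genes described here are those that the study names as a polycomb protein (Sbene_G10227), a forkhead box protein (Sbene_G06980), visual system homeobox 2 (Sbene_G05917), a paired-box protein (Sbene_G17489) and kruppel-like factor 15 (Sbene_G10036), out of 26216 genes in the count files. They were chosen by name. The study named them for a difference between PP and LL eggs in these same libraries, so their values in that comparison are given as a description, and the test of PP against LL is not independent evidence of it. The reciprocal crosses PL and LP were not used to name them.

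Oocyte mRNA of the marine annelid *Streblospio benedicti* was sequenced in 24 libraries, of 7 PP, 7 LL, 5 PL and 5 LP females, with the whole clutch of 1 female in each library according to the methods. The names of PP replicates 5 and 6 share a stem, and those of some F1 libraries of a cross share a letter. Whether this marks a shared female or family is not stated, so both were also summed as alternatives. PP females are planktotrophic, with many small eggs and feeding larvae, and were reared in the lab from a population of Bayonne, NJ. LL females are lecithotrophic, with fewer and larger eggs, and were reared in the lab from a population of Long Beach, CA. PL and LP are the F1 females of lab crosses between the morphs, with the maternal allele first, so both carry a P and an L allele and differ in which parent gave it. All females were raised apart from males so that the oocytes stayed unfertilized, and their ages are not given in the sources used here. Each morph stands for 1 population, so that morph and population cannot be told apart.

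The unfertilized egg carries mRNA from the mother, and this mRNA and its proteins run the first cell divisions before the genome of the embryo is switched on. Transcription factors and chromatin proteins in this store can act before the embryo makes its own. Forkhead proteins bind DNA through a winged-helix domain, kruppel-like factors through zinc fingers, and visual system homeobox and paired-box proteins through a homeodomain and a paired domain. Polycomb proteins work on chromatin and keep genes silent by modifying histones and compacting nucleosomes. These roles are known from flies and vertebrates, and what the 5 genes do in *S. benedicti* is not given in the sources used here. The forkhead, kruppel-like, homeobox and paired-box families have many members in animals, and whether reads were shared with close copies was not tested.

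Between 7489256 and 43609048 counts fell on genes in a library. Levels below are counts normalised by the median of ratios over all 24 libraries, and they are not compared between genes because gene lengths were not used. Of the 24 libraries 13 are labelled as having 2 technical replicates, namely all 10 F1 libraries, PP replicate 7 and LL replicates 6 and 7. The F1 samples were sequenced separately from the parents according to the methods. A difference between F1 and parents therefore runs alongside this label, and values with the label as a covariate, and among the labelled libraries alone where these could give one, are given beside those comparisons. No marker gene of oocytes or of other tissues was fixed, so the labelled tissue was not checked against markers. In such bulk samples fewer cells with a transcript and less of it per cell cannot be told apart.

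The polycomb protein Sbene_G10227 was the 1 gene of the 5 that passed the threshold between the morphs with edgeR, and it was lower in PP. PP replicates 1 to 7 held 251, 1034, 479.6, 1063, 368.5, 432 and 1161 normalised counts. LL replicates 1 to 7 held 2332, 1745, 1853, 2356, 1309, 2328 and 1775. Every LL library lay above every PP library, with the highest PP library (replicate 7) below the lowest LL library (replicate 5). Groups were without such overlap in 1.9% of the 9392 genes tested in this comparison. The means were 684 ± 384 in PP and 1957 ± 397 in LL (n = 7 each, SD). The log2 fold change of PP over LL was -1.52 (standard error, SE, 0.32, edgeR adjusted p = 0.0189). A call here needed a fold change over 1.5 and an adjusted p no higher than 0.05, and 3.56% of all genes tested were called. The polycomb protein was called with each of the 14 libraries left out in turn and under each other setting tried, with adjusted p values from 7.61e-04 (DESeq2) to 0.0430.

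In the F1 libraries the polycomb transcript was mostly within the wide PP range, where 8 of 10 libraries fell. All 10 lay above the PP median of 479.6, and the F1 mean was 1064 against 684 in PP. PL replicates 1 to 5 held 542, 1306, 1040.3, 1109 and 1046 normalised counts, and LP replicates 1 to 5 held 1105, 1676, 900.3, 826 and 1087. The 2 crosses overlapped broadly. Of the 10 F1 libraries 9 were below the lowest LL library, and 2 were above the highest PP library.

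**Figure D1:**
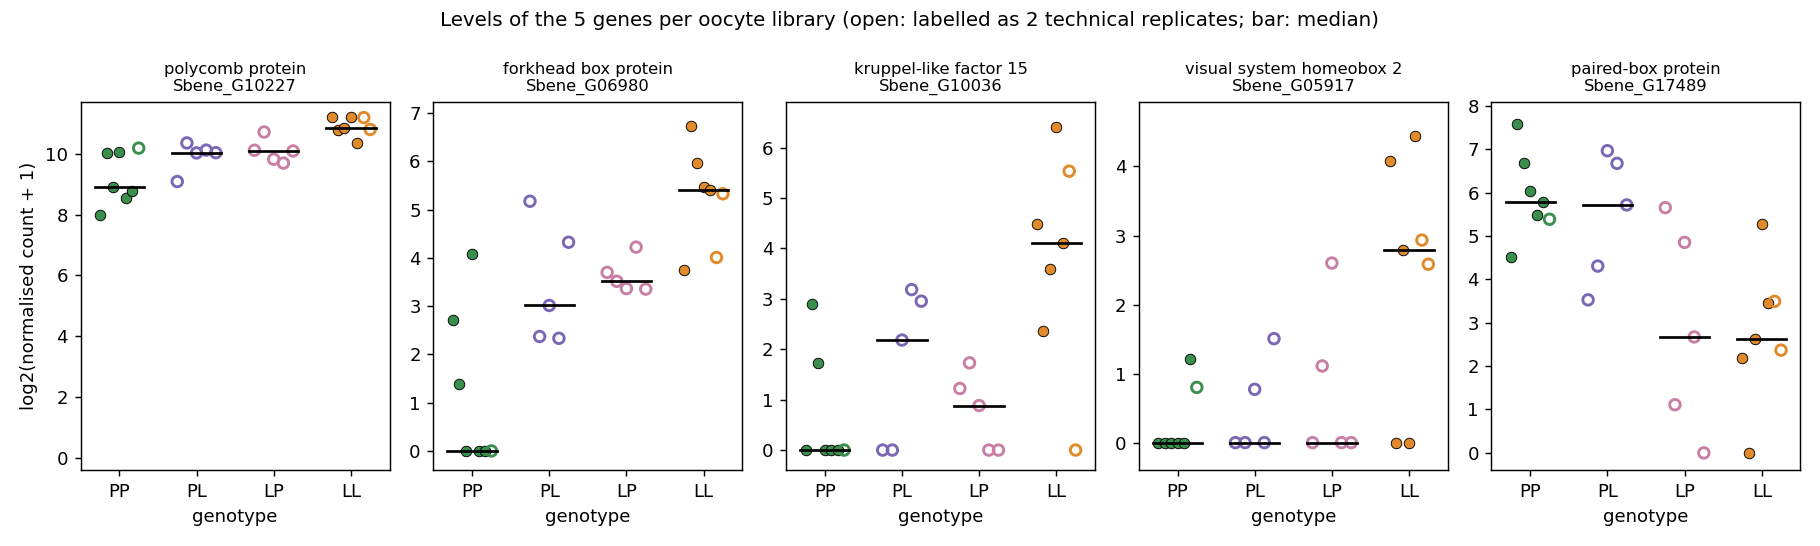
Levels of the 5 genes in each library on the scale log2(normalised count + 1), 1 panel per gene with its own axis, for 7 PP, 5 PL, 5 LP and 7 LL libraries. Open circles are the 13 libraries labelled as having 2 technical replicates, and the bar is the median of the group. The polycomb protein has no overlap between PP and LL, the forkhead box protein is at 0 in 4 PP libraries, and visual system homeobox 2 is at 0 in 5 PP libraries.

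The forkhead box protein Sbene_G06980 was near or at 0 in most PP oocytes and above the floor of 3 counts, below which a value is not told from 0 here, in all LL and 8 of 10 F1 libraries. Forkhead factors act in many animals in the patterning of the gut and other endodermal tissue, but the subfamily of this gene is not given in the sources used here. PP replicates 1 to 7 held 5.59, 1.61, 0, 16.0, 0, 0 and 0 normalised counts. LL replicates 1 to 7 held 12.4, 105, 61.5, 43.4, 41.3, 15.1 and 39.1. The groups overlapped through PP replicate 4, which alone held 18 of the 28 PP counts and stood above LL replicates 1 and 6. The log2 fold change of PP over LL was -3.74 (SE 1.11), and its adjusted p of 0.0759 from edgeR missed the threshold. Over the fits that left out 1 library the adjusted p from edgeR ranged from 0.0255 to 0.149, and the gene was called in 1 of 14 fits, without PP replicate 4 (log2 fold change -5.11).

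In the crosses the forkhead transcript had counts in 10 of 10 libraries, but only 2 counts each in PL replicates 2 and 4, under the floor. PL replicates 1 to 5 held 35.1, 4.17, 7.08, 4.04 and 19.0 normalised counts, and LP replicates 1 to 5 held 11.99, 10.4, 9.29, 17.7 and 9.21. PL held both the lowest and the highest of these 10 values, and the LP libraries lay within that range. The means were 13.9 ± 13.4 in PL and 11.7 ± 3.51 in LP (n = 5 each, SD), against 3.31 ± 5.95 in PP and 45.5 ± 31.4 in LL (n = 7 each, SD). Of the 10 F1 libraries 7 were below the lowest LL library and 3 above the highest PP library.

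Kruppel-like factor 15, Sbene_G10036, was found mainly in LL oocytes, and there mainly in a few clutches. In mammals this zinc finger factor is known from muscle, liver and kidney, where it acts on metabolic genes. Its raw counts in PP replicates 1 to 7 were 0, 4, 5, 0, 0, 0 and 0. In LL replicates 1 to 7 they were 12, 3, 15, 89, 18, 75 and 0. LL replicates 4 and 6 alone held 164 of the 212 LL counts (77.4%), and LL replicate 7 held none. The means were 1.25 ± 2.45 normalised counts in PP and 26.0 ± 29.5 in LL (n = 7 each, SD), so that the spread in LL was larger than its mean. The filter on low counts removed the gene from the fit of PP and LL.

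The F1 libraries held few kruppel-like factor 15 reads. The raw counts were 0, 0, 5, 4 and 11 in PL replicates 1 to 5 and 1, 2, 1, 0 and 0 in LP replicates 1 to 5. All LP libraries were under the floor of 3 counts, while PL replicates 3, 4 and 5 were above it. Each PL and LP library lay within the wide LL range, and 2 were above the highest PP library.

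Visual system homeobox 2, Sbene_G05917, was the sparsest of the 5 genes in number of reads. In vertebrates this homeodomain factor is a marker of retinal progenitor cells. The raw counts in PP replicates 1 to 7 were 0, 0, 0, 0, 0, 3 and 1, and those in LL replicates 1 to 7 were 9, 0, 8, 0, 23, 11 and 6. In all, 5 LL libraries were above every PP library, and LL replicates 2 and 4 were at 0 like most of PP. The means were 0.293 ± 0.526 normalised counts in PP and 7.74 ± 7.82 in LL (n = 7 each, SD). In the F1 libraries the raw counts were 0, 0, 1, 0 and 3 in PL and 0, 1, 6, 0 and 0 in LP, in replicate order. LP replicate 3, with 6 counts, was the only F1 library above the floor of 3 counts. The filter on low counts removed this gene from both fits.

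The paired-box protein Sbene_G17489 was the 1 gene of the 5 with the higher mean in PP. Pax proteins are regulators of nervous system and eye development in flies and vertebrates. PP replicates 1 to 7 held 21.8, 192, 102, 64.8, 43.7, 54.0 and 40.8 normalised counts. LL replicates 1 to 7 held 3.55, 0, 5.19, 37.7, 9.88, 10.3 and 4.16. The groups overlapped only through LL replicate 4, which held 40 of the 82 LL counts and stood above PP replicate 1, while 6 of 7 PP libraries were above every LL library. The log2 fold change was 2.82 (SE 0.77), with an adjusted p of 0.0552 from edgeR that missed the threshold. Without LL replicate 4 the LL mean was 5.51 ± 3.94 normalised counts (SD, n = 6) and the log2 fold change 3.66. This was the 1 called fit of the 14 with a library left out, whose adjusted p from edgeR ranged from 0.0173 to 0.105.

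In the crosses the paired-box transcript had its higher mean in PL, whose mothers were PP. PL replicates 1 to 5 held 10.5, 18.8, 124, 101 and 51.5 normalised counts, and LP replicates 1 to 5 held 49.3, 1.16, 27.9, 5.38 and 0. The highest 3 of the 10 values were PL replicates 3, 4 and 5 and the lowest 3 were LP replicates 2, 4 and 5, with overlap in between. The means were 61.1 ± 49.9 in PL and 16.7 ± 21.4 in LP (n = 5 each, SD), beside 74.1 ± 57.6 in PP and 10.1 ± 12.7 in LL (n = 7 each, SD). By mean the order was PP, PL, LP and LL, and neighbours in this order overlapped.

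Over the 5 genes edgeR tested 3 between PP and LL and called 1, and DESeq2's Wald test, the tool the study used, called 5 of 5. DESeq2 called 8.5% of all genes it tested. The study named the 5 genes from DESeq2 calls of this comparison in these same libraries, so this count supports nothing on its own. With no filter on low counts edgeR tested 5 and called 1, the polycomb protein. The largest adjusted p from DESeq2 among the 5 was that of visual system homeobox 2, 0.0309. Its log2 fold change was -4.31 (SE 1.41). By DESeq2 4 of the 5 were lower in PP and 1, the paired-box protein, was higher. In an edgeR fit of all 24 libraries, where 5.59% of genes were called, 3 of 4 genes tested passed. These were the polycomb protein, the forkhead box protein (adjusted p = 0.0288) and kruppel-like factor 15, whose log2 fold change was -4.46 (SE 1.29, edgeR adjusted p = 0.0393). The filter asks for a minimum level in as many libraries as the smallest group holds, 7 in the fit of 14 and 5 in the fit of 24. Kruppel-like factor 15 reached that level in 5 LL libraries and in 0 PP, PL or LP libraries, so it entered the second fit only through the group in which it was high, and its tests against LL support nothing on their own. Between PP and LL the forkhead box protein reached it in 7 LL libraries and 1 PP library, and the paired-box protein in 7 PP and 3 LL libraries, while the polycomb protein reached it in all 14. The group in which each was high was thus enough to bring the forkhead box protein and the paired-box protein into that fit, also without PP replicate 4 or LL replicate 4, so their tests of PP against LL support nothing on their own either.

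**Figure D2:**
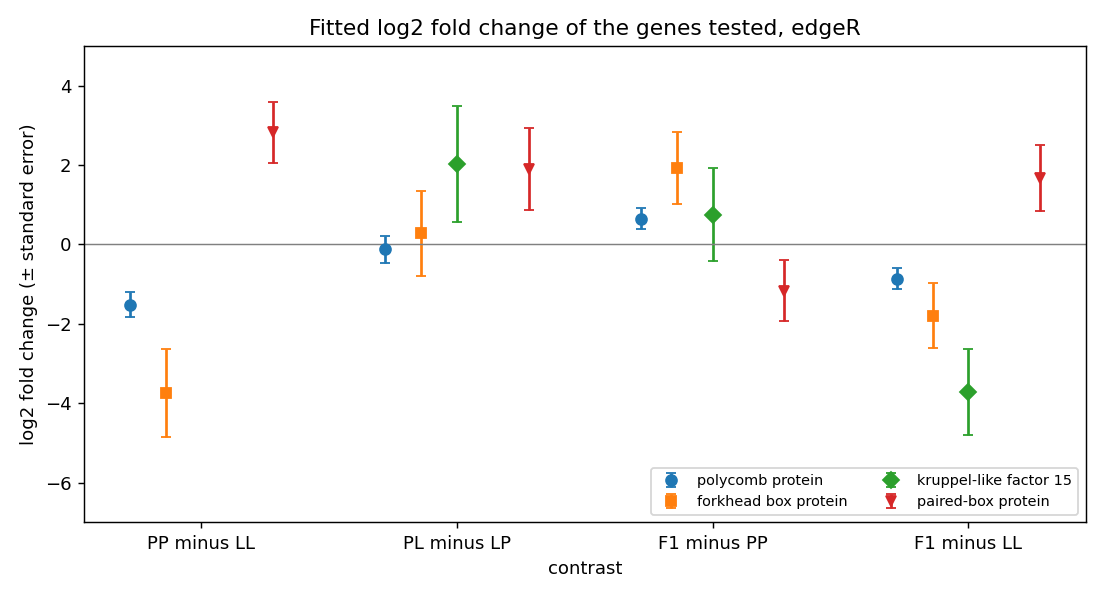
Fitted log2 fold changes (points) with their standard errors (bars) from edgeR for the genes tested in each comparison, with the first group named minus the second. PP minus LL is from the fit of 14 libraries and holds 3 genes, and the other 3 comparisons are from the fit of 24 libraries and hold 4 genes. The PL minus LP values of the polycomb protein (-0.12) and the forkhead box protein (0.28) lie within 1 standard error of 0.

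The reciprocal F1 crosses were compared to ask whether the direction of the cross changes the transcripts in the eggs of F1 females. No gene of the 5 differed between PL and LP past the threshold for tests with F1 libraries, an adjusted p under 0.1 with a fold change over 1.5. EdgeR called 0 of 4 genes tested, where it called 0.0185% of all genes, and 0 of the 4 had an unadjusted p under 0.05, where 7.38% of all genes had one. DESeq2 also called 0 of 5, where it called 0.915% of all genes. The polycomb protein had a log2 fold change of PL over LP of -0.12 (SE 0.34), with a 95% interval from -0.82 to 0.58. For the forkhead box protein the log2 fold change was 0.28 (SE 1.07), with a 95% interval from -1.93 to 2.49. The interval of the polycomb protein leaves out changes of 1 or more on the log2 scale, while that of the forkhead box protein does not.

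The other 2 genes tested had larger fitted differences and wide errors. The paired-box protein had a log2 fold change of PL over LP of 1.90 (SE 1.03, 95% interval from -0.23 to 4.02, edgeR adjusted p = 0.701). That of kruppel-like factor 15 was 2.01 (SE 1.46, 95% interval from -0.996 to 5.02, edgeR adjusted p = 0.779). Two-sided exact permutation tests of mean log2(normalised count + 1) over every division of the 10 F1 libraries into 5 and 5, without adjustment for the 5 genes tested, gave p = 0.0873 for the paired-box protein and 0.254 for kruppel-like factor 15. The same exact tests gave p = 0.563 for the polycomb protein, 0.746 for the forkhead box protein and 0.722 for visual system homeobox 2, and the smallest p that 5 against 5 allow is 0.00794. With each of the 10 F1 libraries left out in turn, the paired-box protein stayed above 0.05 in 9 of 10 such tests. It moved below 0.05 in 1, without LP replicate 1, at an exact permutation p of 0.0397. The difference in mean log2 was then 3.28 in place of 2.58. LP replicate 1 held the highest LP value, 49.3 normalised counts, so leaving it out widens the difference. The test was not repeated on F1 libraries summed by letter.

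The F1 eggs were then compared with those of each morph, with PL and LP given equal weight in the F1 level. These comparisons share the F1 libraries with each other and the parents with PP against LL. The genes were named on those same parents, so a difference of F1 from either morph is not independent evidence. Against PP edgeR called 0 of 4 genes tested, where 3.42% of all genes were called, and DESeq2 called 0 of 5, where 6.91% were. An unadjusted p under 0.05 was found for 2 of the 4 genes, where 15.4% of all genes had one. These were the polycomb protein, whose log2 fold change of F1 over PP was 0.64 (SE 0.27, edgeR adjusted p = 0.238), and the forkhead box protein, with 1.93 (SE 0.90, edgeR adjusted p = 0.305). With the label as a covariate they were 0.27 (edgeR adjusted p = 0.895) and 3.40 (edgeR adjusted p = 0.557), in a fit that called 15 genes in place of 369. Among the labelled libraries alone the polycomb protein turned to -0.16 (edgeR adjusted p = 0.981), where 12 genes were called. The forkhead box protein has no such value, since the 1 labelled PP library holds no count of it. With each library left out in turn, each of the 2 genes passed the threshold in 1 of 24 fits, and the adjusted p from edgeR reached 0.388 for the polycomb protein and 0.437 for the forkhead box protein. The fit that called the forkhead box protein was without PP replicate 4 (log2 fold change 3.28, edgeR adjusted p = 0.0779), and that for the polycomb protein was without PP replicate 7 (log2 fold change 0.83, edgeR adjusted p = 0.0856).

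Against LL edgeR called 1 of 4 genes tested, where 2.52% of all genes were called. Kruppel-like factor 15 was lower in F1 than in LL oocytes, by a log2 fold change of -3.72 (SE 1.08, edgeR adjusted p = 0.0903). The gene had reached the level of the filter in 5 LL libraries and in 0 PP, PL or LP libraries, so its call supports nothing on its own. With the 2-technical-replicates label added as a covariate its log2 fold change was -3.21 and its adjusted p 0.418 from edgeR, in a fit that called 0.0742% of all genes. Among the 13 labelled libraries it was -3.53, and the gene was not called. The LL libraries there are replicates 6 and 7, with 75 and 0 counts of this gene, so that value rests on LL replicate 6. When each library was left out in turn, the gene was called in 9 of the 19 fits that tested it, and it no longer passed the filter without LL replicate 1, 3, 4, 5 or 6. It was tested but not called without LL replicate 2, LP replicate 1, 3, 4 or 5, or any of the 5 PL libraries. The adjusted p ranged from 0.0548 to 0.144 over these 19 fits.

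The polycomb protein narrowly missed the same threshold, with a log2 fold change of F1 over LL of -0.86 (SE 0.26, edgeR adjusted p = 0.104). DESeq2 called it along with kruppel-like factor 15, 2 of 5 genes where 5.68% of all genes were called, with an adjusted p of 0.0537. Left-out libraries moved its adjusted p from edgeR between 0.0726 and 0.182, with 8 of 24 fits under the threshold (without PP replicate 1, 2, 3, 4, 5 or 7, LP replicate 2 or PL replicate 2), and its log2 fold change between -0.95 and -0.78. The covariate gave -1.21 and the labelled libraries alone gave -0.95, with adjusted p values of 0.222 and 0.348 from edgeR. The sign was negative under all 35 settings, while the call came and went. The gene was named for its difference between PP and LL, and every setting reuses LL libraries of that comparison. The shared sign therefore supports nothing on its own.

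**Figure D3:**
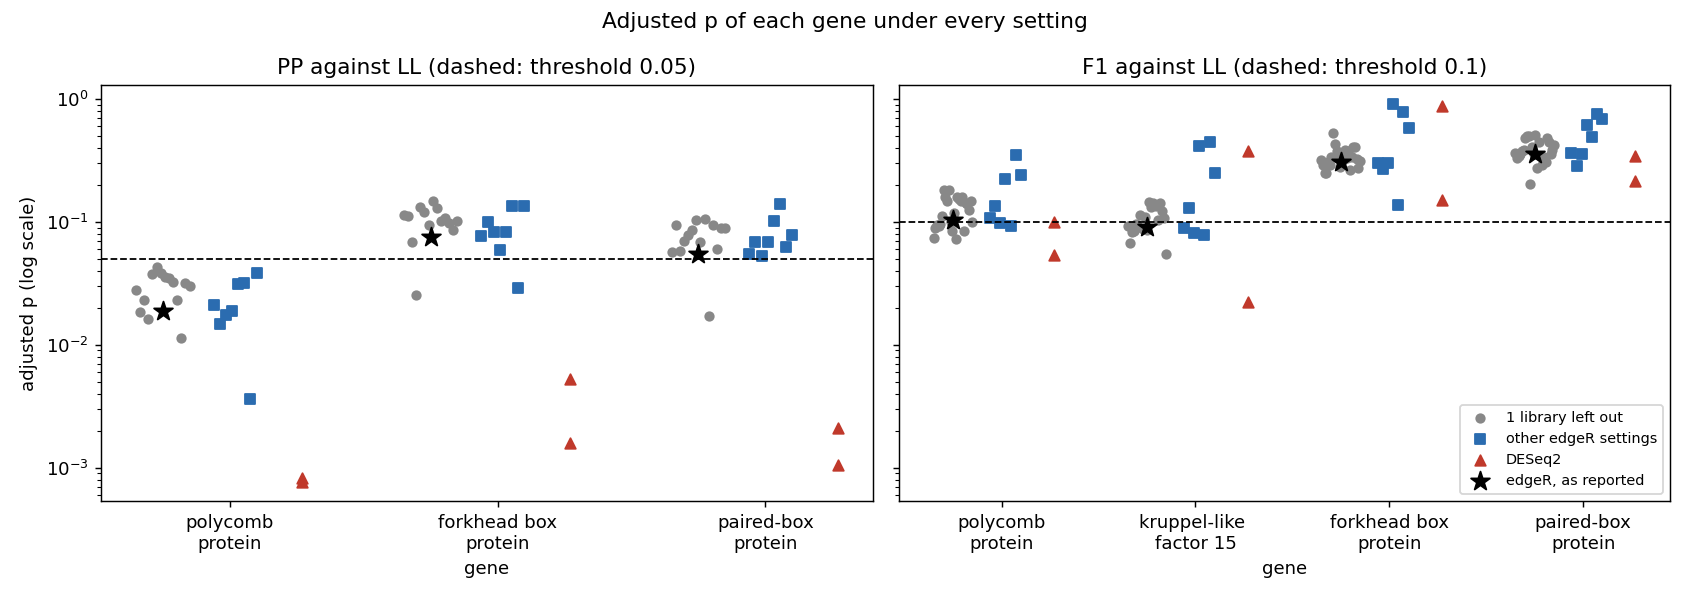
Adjusted p (log axis) of each gene tested between PP and LL (left, threshold 0.05) and between F1 and LL (right, threshold 0.1), under every setting. Stars are the edgeR values given in the text, grey circles edgeR fits with 1 library left out, blue squares other edgeR settings and red triangles DESeq2. The polycomb protein stays under the threshold in the left panel (0.0430 at most), while in the right panel it and kruppel-like factor 15 fall on both sides.

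Neither the forkhead box protein nor the paired-box protein was called against LL. In F1 over LL the forkhead box protein had a log2 fold change of -1.80 (SE 0.82, edgeR adjusted p = 0.310), which was -0.67 with the label as a covariate and -1.06 among the labelled libraries (edgeR adjusted p = 0.915 and 0.787). For the paired-box protein it was 1.67 (SE 0.83, edgeR adjusted p = 0.356), and against PP it was -1.16 (SE 0.76, edgeR adjusted p = 0.506). With the covariate these values of the paired-box protein were 2.21 against LL and -0.51 against PP, and among the labelled libraries 2.15 and -0.35, with no call. Kruppel-like factor 15 differed from PP by 0.75 (SE 1.17, edgeR adjusted p = 0.818), and by 1.43 with the covariate (edgeR adjusted p = 0.878). Visual system homeobox 2, which the filter removed, had a log2 fold change of F1 over LL of -2.89 (SE 1.16, edgeR adjusted p = 0.215) in a fit with no filter.

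The place of the F1 mean between the morphs was expressed on the fitted log2 scale, where 0 is the PP level and 1 the LL level. It was 0.427 for the polycomb protein, 0.517 for the forkhead box protein, 0.168 for kruppel-like factor 15 and 0.410 for the paired-box protein. All 4 fell between the morphs, and with each library left out in turn they stayed between 0.0974 and 0.646. The genes were named because PP and LL lay apart in these same libraries. A place between the morphs, also with a library left out, therefore supports nothing on its own. These places moved with the label of 2 technical replicates. With the label as a covariate they were 0.183 for the polycomb protein, 0.835 for the forkhead box protein, 0.308 for kruppel-like factor 15 and 0.186 for the paired-box protein.

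Among the labelled libraries alone the polycomb protein lay beyond the PP level, at -0.199. The parents then are PP replicate 7, which held the highest PP value, and LL replicates 6 and 7. The paired-box protein was at 0.141 in these libraries. Both the forkhead box protein and kruppel-like factor 15 had no count in PP replicate 7, so no place could be given for them.

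**Figure D4:**
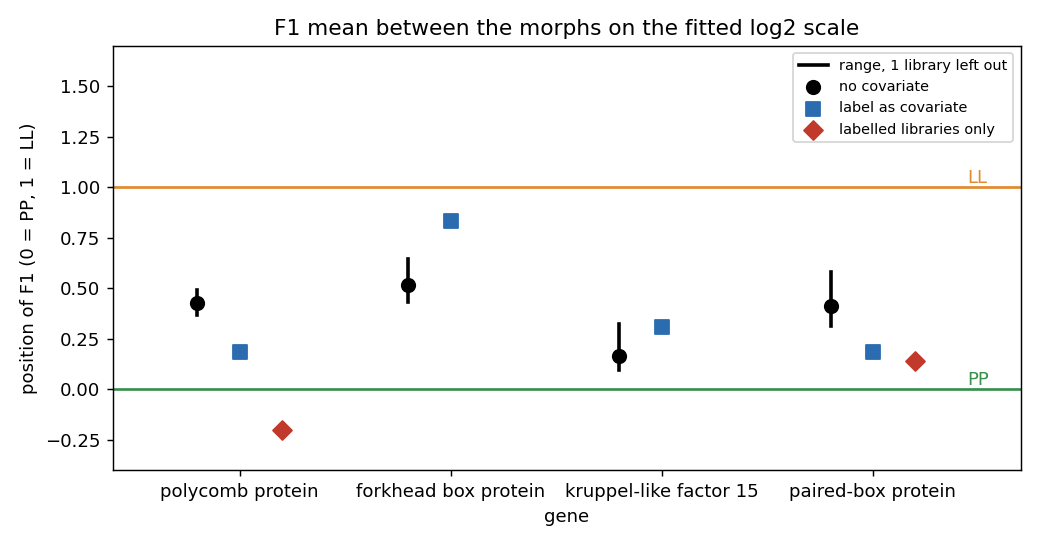
Place of the F1 mean between PP (0, green line) and LL (1, orange line) on the fitted log2 scale for the 4 genes in the fit of 24 libraries. Black circles are without a covariate with the range over left-out libraries as a bar, blue squares have that label as a covariate, and red diamonds use the labelled libraries only. The forkhead box protein moves from 0.517 to 0.835 with the covariate, and the polycomb protein from 0.427 to 0.183.

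A mode of inheritance follows from these calls when a gene differs between PP and LL and the F1 differs from 1 parent or both. EdgeR assigned a mode to 0 of the 5 genes. With 1 library left out the polycomb protein was assigned a mode in the 8 fits in which it was called against LL, P-dominant in 7 and additive, with the F1 between the morphs and unlike both, without PP replicate 7. The forkhead box protein was L-dominant in 1 fit, that without PP replicate 4. The polycomb protein was ambiguous, since its F1 level passed the threshold against neither parent, and kruppel-like factor 15 was not tested between PP and LL. DESeq2 assigned 2, and both were P-dominant, a term for F1 levels that differ from LL and are not told from PP. They were the polycomb protein and kruppel-like factor 15. Both genes were named for their difference between PP and LL, and the comparisons of F1 with each morph use the same parental libraries. No part of either mode is therefore independent evidence. DESeq2 with the label as a covariate, a setting chosen after seeing the data, assigned only the polycomb protein, from 5 of 5 genes called between PP and LL (9.64% of all genes) and 1 of 5 called against LL (1.98%).

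The study's text also names frizzled-5, a Wnt receptor, and 6 copies of Notch, a receptor of signals between neighbouring cells. This list was chosen on these libraries too, so its counts show no independent direction. Of these 7 genes edgeR tested 2 between PP and LL and called 1, lower in PP, while DESeq2 called 1 higher and 5 lower in PP. Between PL and LP edgeR tested 6 and called 0, and DESeq2 called 0 of 7. Against PP edgeR called 1 of 6 higher in F1, the Notch copy Sbene_G06517, which was at 0 in all 7 PP libraries, and DESeq2 called 4 of 7 higher. Without a PP count that Notch copy passed the filter only through the other groups, so its call supports nothing on its own. Against LL edgeR called 0 of 6 and DESeq2 0 of 7. Of all genes tested edgeR called 3.56% between PP and LL, 0.0185% between PL and LP, 3.42% against PP and 2.52% against LL. DESeq2 called 8.5%, 0.915%, 6.91% and 5.68% in the same order.

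For each of the 5 factors the gene with the most similar pattern was taken by Spearman's rho of log2 CPM over the 24 libraries, which share depth and label, among 10781 other genes or, for visual system homeobox 2, 10782. For the polycomb protein it was Sbene_G11773 (rho 0.863), and 11 genes were over 0.8. For the paired-box protein it was Sbene_G22884 (rho 0.841), and for kruppel-like factor 15 it was Sbene_G21323 (rho 0.838), with 1 and 3 genes over 0.8. The forkhead box protein was most like Sbene_G16664 (rho 0.814) and visual system homeobox 2 most like Sbene_G13319 (rho 0.812), each the only gene over 0.8. Over the 14 PP and LL libraries these 5 values ranged from 0.769 to 0.922. These identifiers have no annotation in the files used here.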

How the data were processed

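Before deposit the authors used Trim Galore for trimming, SortMeRNA to take out rRNA, HISAT2 for alignment to a planktotrophic genome and HTSeq-count for counting per gene. Versions and the genome build are not given in the sources used here. Reads of L alleles were thus aligned to a P genome. The study found a slightly larger share of reads assigned to features in PP than in LL samples. It judged that there was no large mapping bias over all features. The effect on the counts of the 5 genes was not tested here. The deposited values are whole-number counts without normalisation, and the batch correction in the methods (RUVg) comes after them and was not repeated. Rows that name no gene held 62.9% to 87.1% of the counts in a library and were left out.

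PP and LL were fitted with edgeR (version 4.0.16, R version 4.3.3) on 14 libraries, and contrasts with F1 on 24 libraries with 4 group means, with TMM normalisation, edgeR's filter on low counts (9392 and 10782 genes kept), quasi-likelihood F-tests, and p-values adjusted by Benjamini-Hochberg over all genes tested. Intervals are at 95%. Normalised counts use DESeq2 (version 1.42.0). A value under 3 counts was taken as not told from 0, for counting error only. No 2 libraries of a group agreed within sampling noise.

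The genes named are the 5 factors and the gene most like each of them. The members and lists were chosen with earlier results of these data known. Alternatives were DESeq2, other normalisation, filters and thresholds, the label as a covariate, other sets of libraries, a replicate block and each library left out. DESeq2 with the label was added after seeing the data. Scripts were tested on simulated data. Figures were drawn with matplotlib (version 3.10.9).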

Additional observations from a re-analysis of the deposited data

Results flagged for a closer look

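Dixon's test at 95% was applied to normalised counts in 20 groups of values (5 genes in PP, LL, PL and LP). It marked 4 libraries as far from the rest of their group. Its chance rate of about 1 group in 20 holds for normally distributed values. The counts were not logged, and in some flagged groups most libraries held no read, so that rate cannot be used here. Whether 4 is more than chance would flag was thus not decided, and the 4 libraries are given as a description. The forkhead box protein Sbene_G06980 was at 16.0 in PP replicate 4, with the next PP library at 5.59. Kruppel-like factor 15, Sbene_G10036, was at 6.45 in PP replicate 2, from 4 reads, with the next PP library at 2.31. Visual system homeobox 2, Sbene_G05917, was at 5.07 in LP replicate 3, from 6 reads, with the next LP library at 1.16. The paired-box protein Sbene_G17489 was at 37.7 in LL replicate 4, with the next LL library at 10.3. LL replicate 4 was also the library with the most kruppel-like factor 15 reads, 89. The cause of these values was not tested.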

How the results depend on the processing

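The polycomb protein kept its call between PP and LL under every setting, and no factor was called between PL and LP under any. Factors called between PP and LL (1 with edgeR) were 5 with DESeq2 with or without the label, and 3 in the fit of 24 libraries or at an adjusted p under 0.1, and ranged from 1 to 2 with a library left out. Against PP (0) they ranged from 0 to 1. Against LL (1) they were 2 with DESeq2, a mean count of at least 10 or the replicate block, 0 with no filter, the label as a covariate, labelled libraries only, an adjusted p of 0.05 or less, or F1 libraries summed by letter, and from 0 to 2 with a library left out. Modes of inheritance (0) were assigned to 2 factors with DESeq2, to 1 with DESeq2 and the label, a mean count of at least 10, the replicate block or PP against LL from the fit of 24 libraries, and to 0 to 2 with a library left out.

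Genes called moved as follows. For PP against LL (334) they were 1058 with DESeq2, 1182 with DESeq2 and the label, 603 in the fit of 24 libraries, 598 at an adjusted p under 0.1, 213 with PP replicates 5 and 6 summed, and 170 to 506 with a library left out (506 without PP replicate 3, 170 to 206 without PP replicate 5 or 6 or LL replicate 1, 2 or 3). For PL against LP (2) they were 104 with DESeq2, 112 with DESeq2 and the label, 5 with no filter, 0 among labelled or F1 libraries alone or summed by letter, and 0 to 8 with a library left out (0 without LP replicate 3, 1 without LP replicate 1, 4 to 8 without PP replicate 3, LL replicate 7 or PL replicate 1 or 2). For F1 against PP (369) they were 887 with DESeq2, 201 with DESeq2 and the label, 15 with the label as a covariate, 12 among labelled libraries, 170 at an adjusted p of 0.05 or less, 107 summed by letter, and 225 to 694 with a library left out (694 without PP replicate 7, 225 and 240 without PL replicate 4 and PP replicate 6). For F1 against LL (272) they were 708 with DESeq2, 8 with the label as a covariate, 34 among labelled libraries, 112 at an adjusted p of 0.05 or less, 56 summed by letter, and 119 to 372 with a library left out (119 to 177 without LL replicate 1, 2, 3 or 4 or PL replicate 3 or 4). The number of genes called with F1 therefore moved with the label. Every F1 library carries the label but only 3 parental libraries do, so these settings rest on few parents. An effect of the label and the loss of parental libraries cannot be told apart, and the cause was not tested.

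With the replicate block edgeR called 171 genes between PP and LL, 1 between PL and LP, 634 between F1 and PP and 676 between F1 and LL. Of 7 PP and LL pairs of the same number 2 had correlated deviations over 0.1, and of 5 PL and LP pairs 3 did. The best match had the same number for 2 of 7 PP and 2 of 5 PL libraries. No rate for pairs of unlike numbers was taken, so this check cannot decide on pairing. The fits given in the text used no pairing.

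Directions turned in these cases, none of them called. The polycomb protein against PP was at -0.16 among labelled libraries. Between PL and LP its log2 fold change ranged from -0.25 to 0.066 with a library left out, above 0 without LP replicate 2 or PL replicate 1. That of the forkhead box protein ranged from -0.36, without PL replicate 1, to 0.51. In the exact permutation test the forkhead difference was 2.16 on normalised counts and -0.62 to 0.090 with a library left out, that of the polycomb protein -0.27 to 0.048 and that of visual system homeobox 2 -0.55 to 0.18.

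Depth limits the sparse genes most. Visual system homeobox 2 had 72 reads in all 24 libraries and kruppel-like factor 15 had 245, so their calls rest on few reads in few clutches.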
